A study of Arabidopsis thaliana with 13 samples.

Results

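The ERF transcription factor family was followed through 44 genes, the members of ERF groups I, VI, VII, VIII, IX and X picked by gene identifier from the 33033 genes of the deposited table. Group IX held 15 members, group VIII 8, group I 7, group VI 6, group X 5 and group VII 3. Poly(A) RNA came from entire etiolated seedlings of Arabidopsis thaliana, and levels are given as TPM, a transcript abundance scaled for length and library size. There were 13 libraries. In wild-type Col-0 they came from seedlings given 10 µM ACC (3 libraries), 30 µM PFT-alpha (3 libraries) or the 1‰ DMSO mock (3 libraries), and in etr1-1 from seedlings given PFT-alpha (2 libraries) or mock (2 libraries). All seedlings were 4 days old, had 6 h of light before the dark period at 22 °C, and were treated for 4 h in liquid medium. ACC is the precursor that plants convert to ethylene, PFT-alpha (pifithrin-alpha) is used in mammalian cells to inhibit p53, and the dominant etr1-1 allele of the receptor gene ETR1 leaves plants unable to respond to ethylene. Whole seedlings were collected, so fewer cells of a type and less RNA per cell cannot be told apart.

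ERF proteins carry a single AP2 DNA-binding domain, and many bind the GCC box in the promoters of defence and hormone genes. Ethylene stabilises the transcription factor EIN3 and its relatives, which switch on ERF1 and other genes, so some ERF genes lie directly downstream of ethylene while others answer to jasmonate, wounding, cytokinin or low oxygen. Group IX holds mainly activators, group VIII repressors with an EAR motif, group VII the factors whose stability is set by oxygen, and group VI the cytokinin response factors (CRFs).

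Promoters of 4 members that rose under ACC are shown because they hold the letters most often tied to this pathway: the core of the GCC box (GCCGCC), or the core (ATGTA) and a longer form (ATGNATCT) of the site of EIN3-type factors. Each window runs from 250 bases before to 50 bases after the annotated start of the gene on the TAIR10.1 assembly of RefSeq, and capitals mark a match to any of the 3 motifs on either strand, where matches may overlap. ERF1 lies at chr3:8295367-8295666 (plus strand), ERF11 at chr1:9956931-9957230 (minus strand), ERF055 at chr1:13456287-13456586 (minus strand) and CRF2 at chr4:12375872-12376171 (plus strand).
ERF1: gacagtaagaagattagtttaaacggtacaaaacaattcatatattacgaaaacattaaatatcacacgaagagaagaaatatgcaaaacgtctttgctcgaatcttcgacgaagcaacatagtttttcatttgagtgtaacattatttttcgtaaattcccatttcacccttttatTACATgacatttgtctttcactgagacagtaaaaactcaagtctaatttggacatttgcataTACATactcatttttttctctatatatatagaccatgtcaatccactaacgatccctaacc
ERF11: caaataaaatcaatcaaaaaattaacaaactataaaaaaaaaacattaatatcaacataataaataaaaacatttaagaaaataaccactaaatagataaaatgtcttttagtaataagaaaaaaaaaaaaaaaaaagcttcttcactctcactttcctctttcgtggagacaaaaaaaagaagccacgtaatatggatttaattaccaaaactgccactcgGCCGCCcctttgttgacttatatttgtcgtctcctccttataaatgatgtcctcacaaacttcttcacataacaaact
ERF055: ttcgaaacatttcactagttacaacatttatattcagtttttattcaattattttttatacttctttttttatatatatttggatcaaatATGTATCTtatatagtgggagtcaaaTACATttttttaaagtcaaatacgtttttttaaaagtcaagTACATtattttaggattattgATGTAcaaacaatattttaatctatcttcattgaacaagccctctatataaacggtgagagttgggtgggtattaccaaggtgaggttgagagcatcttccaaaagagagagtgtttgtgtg
CRF2: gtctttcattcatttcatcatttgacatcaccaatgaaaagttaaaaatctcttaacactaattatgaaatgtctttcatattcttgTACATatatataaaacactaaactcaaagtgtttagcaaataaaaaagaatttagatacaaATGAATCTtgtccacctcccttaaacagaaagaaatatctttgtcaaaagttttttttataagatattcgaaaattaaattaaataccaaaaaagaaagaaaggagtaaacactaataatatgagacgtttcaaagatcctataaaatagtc

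The ERF1 window held ATGTA on the other strand, with the first base of the match at -73 and -11 from the start. The ERF11 window held GCCGCC at -28 and no ATGTA. ATGNATCT began at -160 in ERF055 and at -102 in CRF2. Over the whole family GCCGCC stood in 6 of 44 windows (13.6%), against 2.57% of 27443 windows of the same length over all genes. Those 6 were ORA59, ERF15, ERF11, ABR1, ERF060 and CRF6. ATGTA stood in 28 of 44 windows (63.6%), against 56.4% of all windows, and ATGNATCT in 3 of 44 (6.82%), against 5.24%. Of the 10 members higher under ACC with replicates paired, 1 window held GCCGCC, 7 held ATGTA and 2 held ATGNATCT. A match is a description of the letters in the window and no evidence of binding.

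Of the 44 members, 37 reached 1 TPM in at least 2 libraries and were tested, among 21091 genes in all. The 7 members that did not reach this level were the RRTF1 gene of group X and 6 of group IX. ERF096 and ESE1 were listed at 0 in every library. ERF13 reached at most 1.03 TPM, RRTF1 0.87 TPM, TDR1 0.83 TPM, ERF14 0.51 TPM and ERF091 0.31 TPM. Depth was estimated at 20500000 to 29300000 fragments a library, and a transcript of 1500 bases at 1 TPM then had 19.8 to 29.0 fragments. The lowest values rest on few fragments, for example about 4 for ERF1 in WT mock 3.

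**Figure D1:**
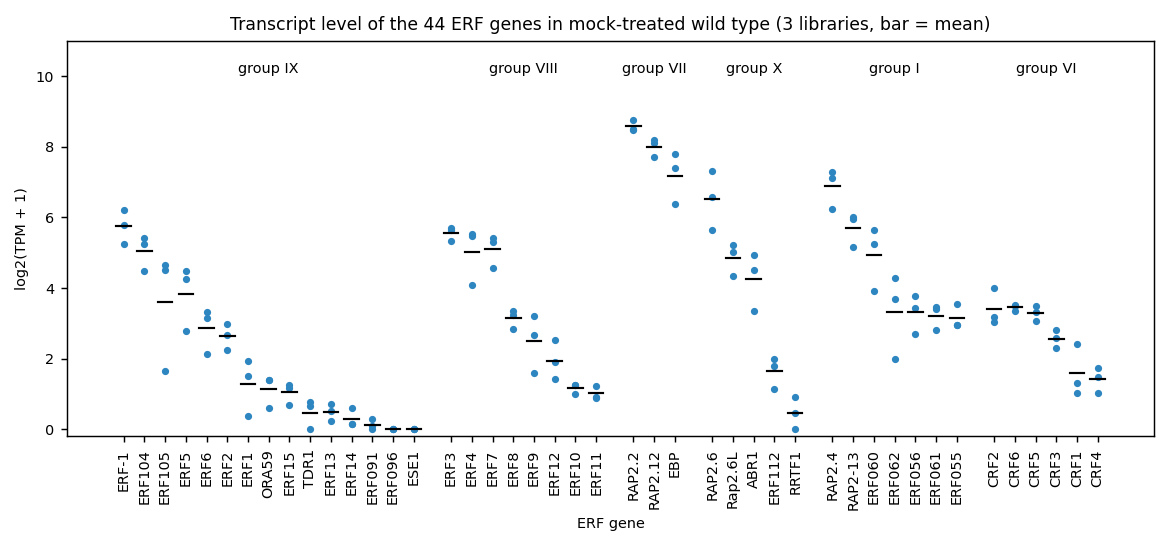
Level of the 44 ERF genes in mock-treated wild type as log2(TPM + 1), ordered by mean TPM within each ERF group, with 1 point for each of 3 libraries and a bar at their mean. The 3 members of group VII are the most abundant as a group, and 6 of the 15 members of group IX and 1 of the 5 of group X lie near 0.

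In mock-treated wild type the levels per length spanned a wide range. RAP2.2, a group VII factor that acts in low-oxygen survival, had 435, 356 and 359.8 TPM, and RAP2.12, its close relative released from the plasma membrane when oxygen falls, had 288, 276 and 210.3 TPM. EBP, also called RAP2.3, the third member of this group, had 219, 167 and 81.96 TPM. The highest members of the other groups by mean over all libraries were RAP2.4 in group I, RAP2.6 in group X, ERF-1 in group IX, ERF3 in group VIII and CRF2 in group VI. RAP2.4, a factor placed between light and ethylene signalling, had 154, 139 and 74.99 TPM in mock-treated wild type. RAP2.6, a stress- and hormone-responsive factor, had 157, 94.3 and 49.2 TPM. ERF3, an EAR-type repressor, had 51.3, 48.99 and 39.4 TPM. RAP2.6 and EBP were thus far lower in WT mock 3 than in WT mock 1, while ERF3 and RAP2.12 stayed closer together.

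Libraries stood apart in ways that touch the members. The 3 wild-type replicate 3 libraries lay at 74.4 to 87.0 on the first principal component (44.7% of variance), against -35.2 to -9.5 for the other libraries. Of the 37 members 28 (75.7%) were lower in replicate 3 than in replicates 1 and 2 in all 3 wild-type groups, against 41.7% of all genes tested, and the median shift was -0.55 on the log2 scale, against -0.10 for all genes. ERF105 shifted most (-3.37 on average), followed by ERF062 (-1.54), ABR1 (-1.53) and ERF060 (-1.36). CRF1, CRF2, CRF5 and ERF12 were higher in replicate 3 in all 3 groups (10.8% of members, against 26.7% of all genes), with ERF12 at 1.01 and CRF2 at 0.88. Tissue markers moved with replicate 3 too. The 4 photosynthetic markers summed to 15942 to 19498 TPM in the 3 replicate 3 libraries, against 6203 to 8790 TPM in the other 6 wild-type libraries. The 4 root markers summed to 1824 to 2345 TPM there, with 2 of 4 at 1 TPM or more, against 3778 to 6424 TPM with 3 or 4. Their part in the ERF values was not tested. Wild-type libraries with the same number deviated from their group means together in all 9 pairs (r across genes 0.28 to 0.77). The means are of 3 libraries, so an outlying replicate 3 alone makes replicates 1 and 2 deviate together. Only replicate 3 was set apart by its number: its 3 pairs had r of 0.70 to 0.77 and its pairs with replicates 1 and 2 -0.64 to -0.34, whereas replicate 1 and 2 libraries correlated as well across numbers (0.29 to 0.54) as within them (0.28 to 0.55). Each wild-type result is therefore given without and with the replicate number as a block, here called the unpaired and the paired fit. The library labelled etr1-1 mock 1 did not match its group: over the 37 members its nearest library was WT ACC 2 (root mean square difference 0.18 on the log2 scale), against 1.03 from etr1-1 mock 2. Results that use it are given with and without it.

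ACC was compared with mock in wild type to see which ERF genes respond to the ethylene precursor. ERF2, ERF11 and ERF055 were higher under ACC in the unpaired fit, and 10 members from all 6 groups were higher and 1, ERF061, lower in the paired fit. The unpaired fit called 3 of 37 members (8.11%), against 0.896% of all genes tested, and the paired fit 11 of 37 (29.7%), against 5.5%. A call is an adjusted p below 0.05 in limma with Benjamini-Hochberg adjustment over 21091 genes. In all 1.57% of all genes were called higher and 3.93% lower in the paired fit, against 27.0% and 2.70% of the tested members. The median log2 change was 0.35 over the 37 members, with 29 above 0, and -0.001 over all genes. Fold changes are on the log2(TPM + 1) scale, which understates the change of low genes. Without the 3 replicate 3 libraries 8 of 37 members were called, against 5.8% of all genes, and ERF-1, ERF8 and EBP were the 3 lost.

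The calls differed in how far they rested on 1 library. None of the 3 unpaired calls was made without WT mock 2, WT ACC 1 or WT ACC 2. Of all genes these fits called 35, 47 and 45, against 189 over all wild-type libraries, so calls fell in general. ERF1, ERF2 and ERF11 were called in the paired fit whichever of the 6 WT ACC and WT mock libraries was left out. ERF055 and Rap2.6L were called in 5 of 6 such fits, failing without WT ACC 2 and without WT mock 2, and ERF-1 and RAP2.2 in 4 of 6, failing without either of these libraries. EBP was called in 2 of 6, only without WT mock 1 or WT ACC 1. ERF8 was called without WT ACC 1 alone, ERF061 without WT mock 3 alone and CRF2 without WT ACC 3 alone. ERF9, not called over all libraries, was called without WT mock 1 or WT ACC 1, and RAP2.6 without WT ACC 1. In all, 4 to 11 members were called when 1 library was left out, against 218 to 1099 of all 21091 genes. The lowest count of members came without WT mock 2 (225 of all genes) or WT ACC 2 (218 of all genes), and the 11 without WT ACC 1 (1010 of all genes) were 9 of the 11 above with ERF9 and RAP2.6.

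**Figure D2:**
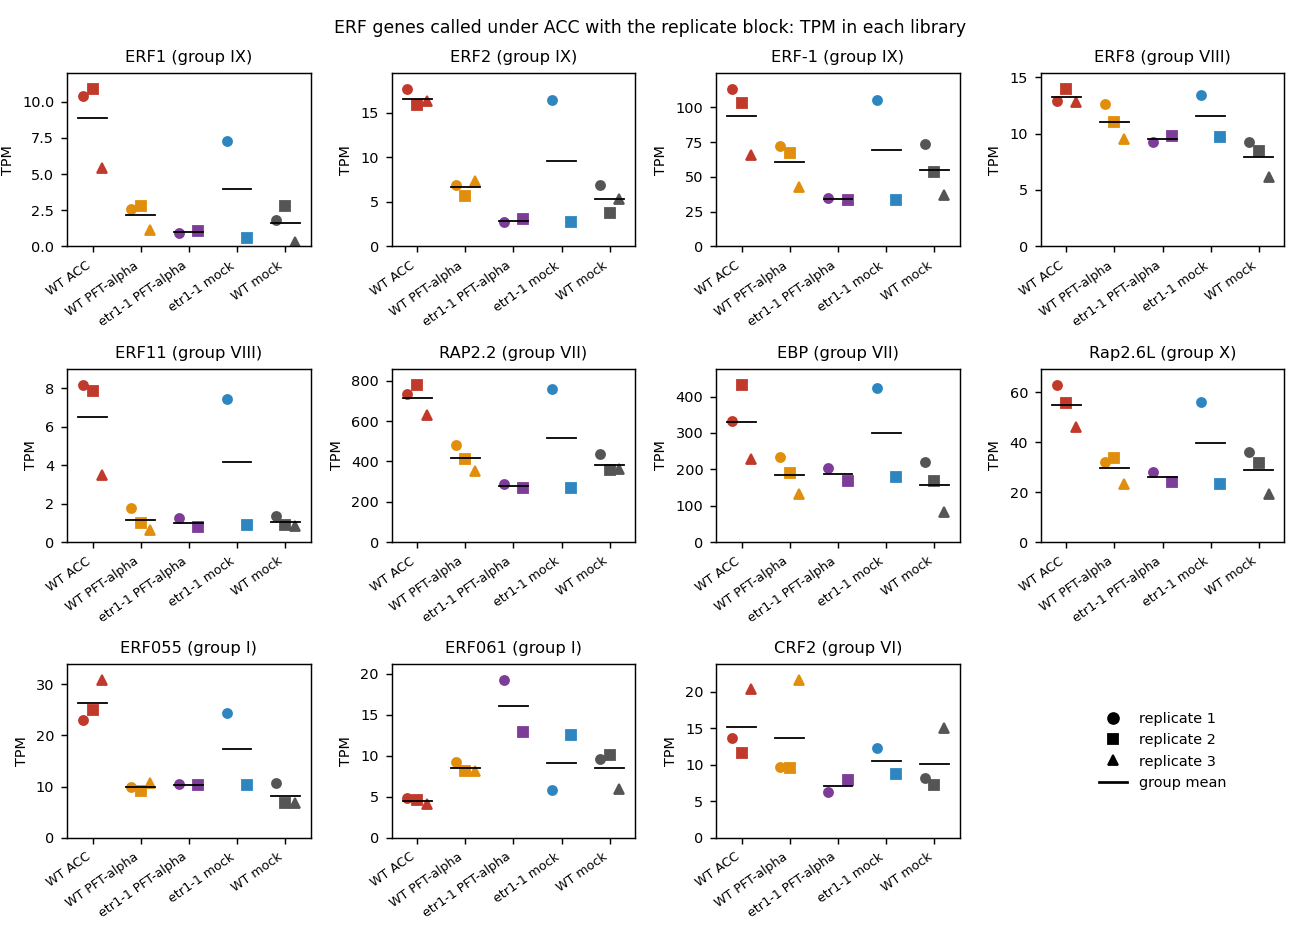
TPM in each library for the 11 ERF genes called under ACC in the paired fit, by group, with the replicate number as the shape of the point and a bar at the group mean. In 10 panels the point labelled etr1-1 mock replicate 1 falls within the range of the WT ACC points, and in all 11 outside that of the other 3 etr1-1 points. The genes shown were picked for their change under ACC, and the same counts were not made over all genes. ERF061 is the 1 gene lower under ACC.

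Group IX, the activators, had 3 of its 9 tested members higher under ACC in the paired fit. ERF1 (AT3G23240, chr3:8295617-8296604), a direct EIN3 target that joins ethylene and jasmonate signals, had 10.4, 10.9 and 5.43 TPM in WT ACC, 2.6, 2.78 and 1.17 TPM in WT PFT-alpha, 0.91 and 1.09 TPM in etr1-1 PFT-alpha, 7.31 and 0.59 TPM in etr1-1 mock and 1.85, 2.79 and 0.30 TPM in WT mock. The WT ACC libraries lay above every WT mock library without overlap. The log2 fold change was 1.98 (SE 0.172), with an adjusted p = 0.00199 in the paired and 0.106 in the unpaired limma fit.

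ERF2 (AT5G47220, chr5:19171643-19172956), an activator that binds the GCC box, had 17.6, 15.8 and 16.2 TPM in WT ACC, 6.89, 5.64 and 7.3 TPM in WT PFT-alpha, 2.72 and 3.06 TPM in etr1-1 PFT-alpha, 16.4 and 2.73 TPM in etr1-1 mock and 6.86, 3.77 and 5.33 TPM in WT mock. The WT ACC values were tight and stood apart from all other groups except the library labelled etr1-1 mock 1. ERF2 rose by 1.50 (SE 0.195, adjusted p = 0.0151 in the unpaired and 0.00228 in the paired limma fit). It was among the few members whose wild-type values did not shift in 1 direction in replicate 3.

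ERF-1 (AT4G17500, chr4:9759203-9760391), a gene distinct from ERF1, a close relative of ERF2 and the most abundant member of group IX, had 113, 103 and 65.4 TPM in WT ACC, 72.3, 66.8 and 42.9 TPM in WT PFT-alpha, 35.01 and 33.5 TPM in etr1-1 PFT-alpha, 105 and 33.5 TPM in etr1-1 mock and 73.3, 53.8 and 37.2 TPM in WT mock. WT ACC and WT mock overlapped, because WT ACC 3 lay below WT mock 1, but within each replicate number WT ACC was the higher. The rise of 0.78 (SE 0.091) passed in the paired limma fit (adjusted p = 0.00541) and not in the unpaired fit (adjusted p = 0.536) or without the 3 replicate 3 libraries (adjusted p = 0.0574).

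ORA59, a jasmonate and ethylene integrator of defence, did not pass. It had 3.17, 3.11 and 1.23 TPM in WT ACC, 1.64, 1.93 and 0.52 TPM in WT PFT-alpha and 1.63, 1.66 and 0.53 TPM in WT mock, and the log2 fold change under ACC was 0.61 (95% interval 0.27 to 0.95, adjusted p = 0.0578 in the paired limma fit). ERF15, a relative of ERF1, gave 0.71 with an adjusted p = 0.087 in the same limma fit. ERF5 and ERF6, stress-responsive activators that act in leaf growth, gave 0.46 and -0.05, and ERF104, a substrate of the kinase MPK6, gave -0.13. Over the 13 libraries ERF5, ERF6, ERF104 and ERF15 ranged from 0.59 to 42.0 TPM, with ERF104 the highest of them in every library.

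ERF105, a cold-responsive activator, had the largest replicate 3 shift of all members, with 3.25, 10.6 and 0 TPM in WT ACC, 22.9, 17.1 and 0 TPM in WT PFT-alpha, 12.6 and 8.96 TPM in etr1-1 PFT-alpha, 10.9 and 5.03 TPM in etr1-1 mock and 21.8, 24.3 and 2.17 TPM in WT mock. WT ACC 3 and WT PFT-alpha 3 were listed at 0. ERF105 lies wholly inside AT5G51180 on the other strand, which had 20.96, 20.4 and 15.5 TPM in WT ACC, and since the use of strand in the counting is not stated the ERF105 values are uncertain. Its log2 fold change under ACC, -1.74, did not pass (adjusted p = 0.0696 in the paired limma fit).

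Group VIII, the EAR-motif repressors, had 2 of 8 members higher under ACC in the paired fit. ERF11 (AT1G28370, chr1:9955774-9956980), a repressor of genes for ACC synthase, had 8.2, 7.84 and 3.48 TPM in WT ACC, 1.76, 1.01 and 0.65 TPM in WT PFT-alpha, 1.25 and 0.78 TPM in etr1-1 PFT-alpha, 7.47 and 0.91 TPM in etr1-1 mock and 1.35, 0.90 and 0.85 TPM in WT mock. All WT ACC libraries lay above all WT mock libraries, though WT ACC 3 was well below the other WT ACC libraries. ERF11 rose by 1.82 (SE 0.319, adjusted p = 0.0486 in the unpaired and 0.00483 in the paired limma fit).

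ERF8 (AT1G53170, chr1:19821337-19822399) had 12.9, 13.9 and 12.8 TPM in WT ACC, 12.6, 10.98 and 9.53 TPM in WT PFT-alpha, 9.28 and 9.79 TPM in etr1-1 PFT-alpha, 13.4 and 9.66 TPM in etr1-1 mock and 9.24, 8.48 and 6.15 TPM in WT mock. WT ACC and WT mock did not overlap. The rise of 0.68 (SE 0.122) passed in the paired limma fit (adjusted p = 0.0228), with an adjusted p = 0.154 in the unpaired fit and 0.0576 without the 3 replicate 3 libraries. ERF9, a repressor of defence genes, had a larger log2 fold change of 1.08 with a wide interval (0.50 to 1.66) and did not pass over all libraries (adjusted p = 0.0525 in the paired limma fit), but did in the paired limma fit without WT mock 1 (adjusted p = 0.0365) or WT ACC 1 (0.0287). ERF9 had 10.3, 14.2 and 8.82 TPM in WT ACC, 6.14, 5.26 and 3.55 TPM in WT PFT-alpha, 5.81 and 4.7 TPM in etr1-1 PFT-alpha, 15.3 and 4.01 TPM in etr1-1 mock and 8.17, 5.34 and 2.05 TPM in WT mock, so WT ACC lay above WT mock in every library. The remaining repressors, ERF3, ERF4, ERF7, ERF10 and ERF12, gave log2 fold changes between -0.20 and 0.41. ERF3, the most abundant of them, had 56.5, 55.8 and 45.1 TPM in WT ACC, 52.1, 48.3 and 34.1 TPM in WT PFT-alpha and 51.3, 48.99 and 39.4 TPM in WT mock, and the groups overlapped.

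In group VII, whose members are targets of the oxygen-dependent N-degron pathway, 2 of 3 members were higher under ACC in the paired fit. RAP2.2 (AT3G14230, chr3:4737120-4739298) had 735, 781 and 629 TPM in WT ACC, 479, 414 and 354 TPM in WT PFT-alpha, 288 and 269.7 TPM in etr1-1 PFT-alpha, 760.3 and 266 TPM in etr1-1 mock and 435, 356 and 359.8 TPM in WT mock. This was the most abundant member in every library, and the WT ACC libraries lay above all WT mock libraries. The rise of 0.90 (SE 0.114) passed in the paired limma fit (adjusted p = 0.00684) and not in the unpaired one (adjusted p = 0.0875).

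EBP (AT3G16770, chr3:5705541-5707084) had 333, 433 and 228 TPM in WT ACC, 235, 188 and 133 TPM in WT PFT-alpha, 203 and 169 TPM in etr1-1 PFT-alpha, 422 and 179 TPM in etr1-1 mock and 219, 167 and 81.96 TPM in WT mock. WT ACC lay above WT mock by a narrow margin between the nearest libraries. The rise of 1.14 (SE 0.183) gave an adjusted p = 0.015 in the paired, 0.401 in the unpaired limma fit and 0.0595 without the 3 replicate 3 libraries. RAP2.12 had 268, 285 and 247 TPM in WT ACC, 274, 249 and 208 TPM in WT PFT-alpha and 288, 276 and 210.3 TPM in WT mock, the groups overlapped, and its log2 fold change was 0.06 (95% interval -0.18 to 0.29). The 3 members summed to 1104 to 1499 TPM in WT ACC, 695 to 988 TPM in WT PFT-alpha and 652 to 943 TPM in WT mock, so WT ACC stood above WT mock for the group as a whole. RAP2.12 shares 452 identical bases with AT1G53887, so reads could be split between them, and that locus was listed at 1.98, 4.26 and 6.68 TPM in WT mock.

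Genes known to be induced by low oxygen downstream of group VII were taken as a list of 10. The list holds HRE1 and HRE2, further group VII factors outside the 44 members. In the paired fit 1 of 10 was higher under ACC, LBD41, a LOB-domain factor (log2 fold change 0.80, adjusted p = 0.0420 in limma), none was lower, and the median was 0.81. LBD41 had 86.05, 107 and 77.2 TPM in WT ACC and 65.2, 41.2 and 48.97 TPM in WT mock. ADH1, the alcohol dehydrogenase of fermentation, had 246, 559.6 and 77.9 TPM in WT ACC and 275, 74.5 and 75.6 TPM in WT mock, which overlapped widely.

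Group X had 1 of 4 tested members higher under ACC in the paired fit. Rap2.6L (AT5G13330, chr5:4271730-4274674), a factor of shoot regeneration and tissue reunion, had 63.1, 55.6 and 45.95 TPM in WT ACC, 32.1, 33.8 and 23.2 TPM in WT PFT-alpha, 28.03 and 24.1 TPM in etr1-1 PFT-alpha, 56.04 and 23.2 TPM in etr1-1 mock and 36.2, 31.5 and 19.1 TPM in WT mock. WT ACC did not overlap WT mock. The rise of 0.94 (SE 0.116) had an adjusted p = 0.00636 in the paired and 0.207 in the unpaired limma fit. RAP2.6 had 164, 174 and 73.3 TPM in WT ACC and ABR1, a repressor of abscisic acid responses, 37.3, 39.03 and 10.4 TPM. Both were far lower in WT ACC 3 than in the other WT ACC libraries, and neither log2 fold change passed (0.50 and 0.43, adjusted p = 0.121 and 0.143 in the paired limma fit), although RAP2.6 did without WT ACC 1 (adjusted p = 0.0481).

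Group I moved in both directions. ERF055 (AT1G36060, chr1:13454496-13456336) had 23.1, 25.1 and 30.9 TPM in WT ACC, 9.85, 9.06 and 10.7 TPM in WT PFT-alpha, 10.5 and 10.2 TPM in etr1-1 PFT-alpha, 24.5 and 10.3 TPM in etr1-1 mock and 10.7, 6.76 and 6.68 TPM in WT mock. WT ACC stood clear of WT mock in every library. ERF055 rose by 1.61 (SE 0.196, adjusted p = 0.012 in the unpaired and 0.00495 in the paired limma fit).

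ERF061 (AT1G64380, chr1:23890570-23892193) had 4.85, 4.6 and 4.12 TPM in WT ACC, 9.18, 8.17 and 8.09 TPM in WT PFT-alpha, 19.2 and 12.9 TPM in etr1-1 PFT-alpha, 5.77 and 12.5 TPM in etr1-1 mock and 9.53, 10.02 and 5.98 TPM in WT mock. It was the only member of the 37 called lower, and WT ACC lay below every other library. Its log2 fold change of -0.76 (SE 0.146) passed in the paired limma fit (adjusted p = 0.0291) and not in the unpaired one (adjusted p = 0.159). The other 5 members of group I, RAP2.4, RAP2-13, ERF056, ERF060 and ERF062, lay between -0.36 and 0.35 and did not pass. RAP2.4 had 154, 151 and 106 TPM in WT ACC, 131, 132 and 94.5 TPM in WT PFT-alpha and 154, 139 and 74.99 TPM in WT mock, and the groups overlapped. ERF062 had 10.4, 7.88 and 5.04 TPM in WT ACC, 9.44, 13.2 and 2.29 TPM in WT PFT-alpha, 10.3 and 11.7 TPM in etr1-1 PFT-alpha, 7.16 and 11.2 TPM in etr1-1 mock and 11.9, 18.4 and 3.01 TPM in WT mock, with replicate 3 the lowest in each wild-type group. RAP2-13, ERF056 and ERF060 ranged from 2.68 to 63.2 TPM over the 13 libraries.

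Among the 6 CRFs of group VI, CRF2 alone was called. CRF2 (AT4G23750, chr4:12376122-12378032) had 13.6, 11.7 and 20.4 TPM in WT ACC, 9.68, 9.58 and 21.6 TPM in WT PFT-alpha, 6.31 and 7.97 TPM in etr1-1 PFT-alpha, 12.2 and 8.68 TPM in etr1-1 mock and 8.13, 7.23 and 15.0 TPM in WT mock. WT ACC and WT mock overlapped because replicate 3 was high in both. The log2 fold change was 0.57 (SE 0.119), with an adjusted p = 0.0376 in the paired and 1 in the unpaired limma fit. CRF1, CRF3, CRF4, CRF5 and CRF6, all at 0.9 to 12.7 TPM over the 13 libraries, gave log2 fold changes between -0.14 and 0.48 and did not pass. Of 5 tested cytokinin response regulators, ARR16 was higher under ACC (log2 fold change 1.47, adjusted p = 0.00652 in the paired limma fit) and the other 4 did not pass.

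Other genes of the ethylene pathway also rose. Of 12 genes of perception and signalling, 7 were higher under ACC in the paired fit and none lower, namely the receptor genes ERS1 (0.79 on the log2 scale), ETR2 (0.81) and ERS2 (1.67), the receptor regulator RTE1 (1.62), the kinase CTR1 that restrains the pathway (1.22), EIN2 (0.64), which passes the signal to the nucleus, and EBF2 (0.61), an F-box protein that removes EIN3. Of 4 EDF and RAV relatives, which carry AP2 and B3 domains, 3 were higher: EDF3 at 1.50, TEM1 at 1.05 and RAV2 at 0.56. Of 6 defence genes listed as downstream of ERF1 and ORA59, the 3 PDF1.2 genes were at 0 in every library and the other 3 did not pass. HEL, a pathogenesis-related protein of the PR4 class, had 117, 117 and 19.6 TPM in WT ACC and 114, 99.9 and 9.18 TPM in WT mock, and within these replicate 3 was the low library in both groups. Of 8 seed storage and oil body genes, 1, SESA4, was lower under ACC (log2 fold change -1.50).

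**Figure D3:**
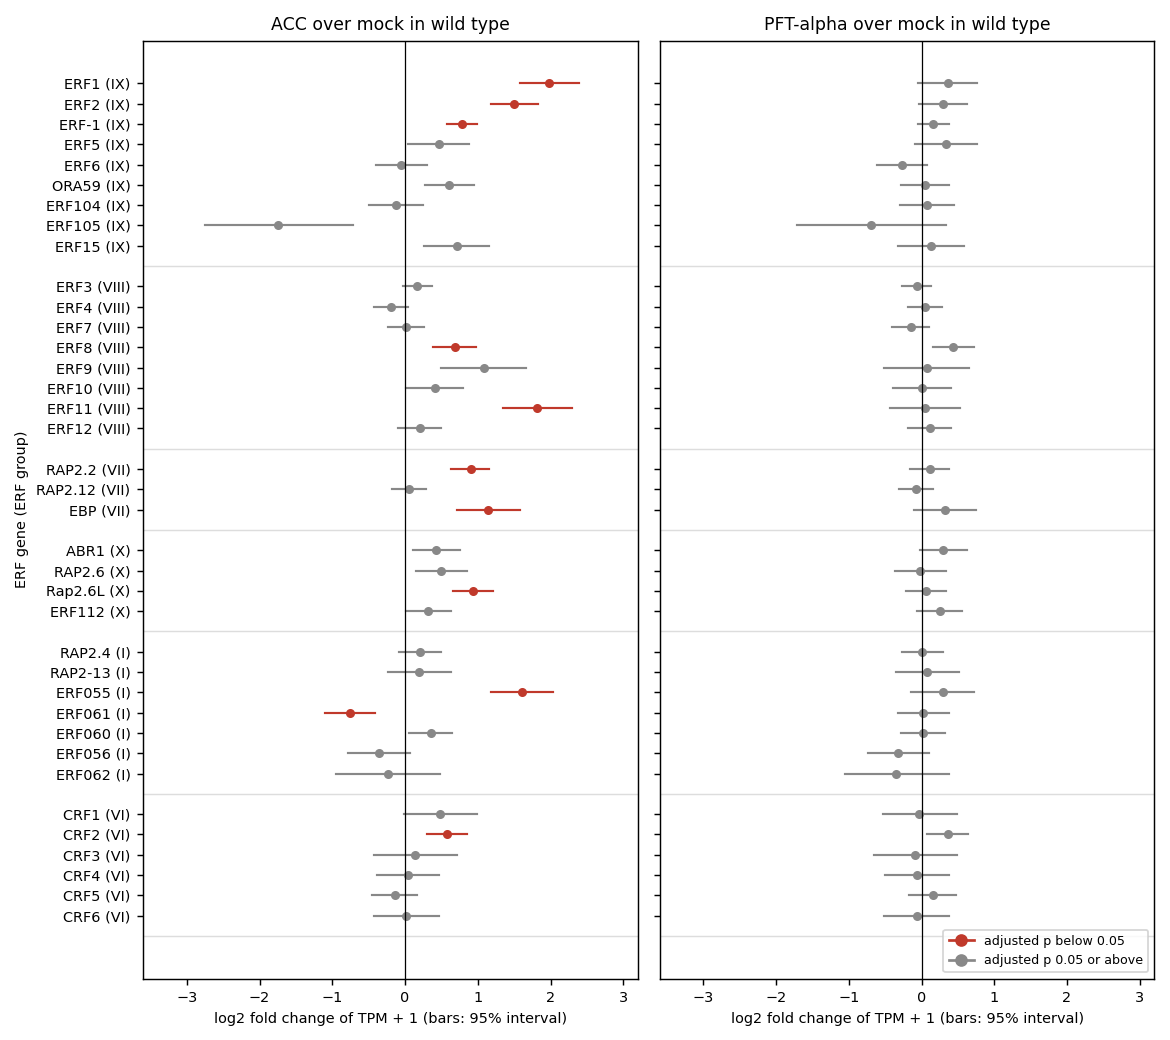
Log2 fold change of TPM + 1 with 95% interval for the 37 tested ERF genes in the paired fit, for ACC over mock (left) and PFT-alpha over mock (right) in wild type, ordered by ERF group. With ACC 10 genes are called higher and ERF061 lower, and with PFT-alpha no gene is called. The mock libraries are the same in both panels.

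PFT-alpha against mock asks whether the compound moves the same family. No member passed in wild type, in the unpaired or the paired fit, and 0% of all 21091 genes were called in either. Without the 3 replicate 3 libraries no member and 0.00474% of all genes were called, and 1 member and 1135 genes had an unadjusted p below 0.05. At an unadjusted p below 0.05 limma gave 1 of 37 members, ERF8, and 161 of all genes in the unpaired fit. In the paired fit it gave 2 members, ERF8 and CRF2, and 817 genes. The median log2 change of the members was 0.05, with 25 of 37 above 0, and -0.025 over all genes.

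For the 10 members that rose under ACC, the intervals of the paired fit say how large a PFT-alpha effect that fit allows. ERF1 gave a log2 fold change of 0.36 (95% interval -0.05 to 0.76), ERF2 one of 0.29 (-0.03 to 0.62) and ERF11 one of 0.05 (-0.43 to 0.53) in the paired fit. RAP2.2 gave 0.11 (-0.16 to 0.38), EBP 0.32 (-0.11 to 0.75) and ERF055 0.29 (-0.14 to 0.72). ERF-1 gave 0.16 (-0.05 to 0.38) and Rap2.6L 0.06 (-0.21 to 0.34). For each of these 8 genes the upper bound in the paired fit lay below the log2 fold change under ACC. For ERF8 and CRF2 the upper bound did not: ERF8 gave 0.43 (0.15 to 0.72), against 0.68 under ACC, and CRF2 gave 0.36 (0.08 to 0.64), against 0.57 under ACC. The unpaired fit gave larger errors for some of these genes, and its intervals were not set against ACC. For ACC over mock ERF-1 had an SE of 0.318 unpaired, against 0.091 paired, and EBP 0.402, against 0.183. The order of bounds and ACC values is thus stated for the paired fit only. The ACC values rest on the same mock libraries, have their own error and were what picked the genes. Setting the bounds against them is therefore no test of PFT-alpha against ACC. Under PFT-alpha ORA59 gave 0.05 (-0.29 to 0.38), RAP2.12 -0.08 (-0.31 to 0.15) and ERF061 0.02 (-0.32 to 0.37).

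None of the largest PFT-alpha changes by group passed. In group VIII and group VI they were ERF8 and CRF2, whose unadjusted intervals left out 0, with an adjusted p = 1 for both in limma. ERF8 was higher in WT PFT-alpha than in WT mock in 3 of 3 replicate numbers, as was CRF2. Both were picked for their change in these same values, and the share of all genes with such agreement was not counted. ERF105 gave -0.69 (-1.71 to 0.33), with 0 TPM in WT PFT-alpha 3 and 2.17 TPM in WT mock 3. ERF062 gave -0.35 (-1.06 to 0.37), with 9.44, 13.2 and 2.29 TPM in WT PFT-alpha and 11.9, 18.4 and 3.01 TPM in WT mock, and ABR1 gave 0.30 (-0.02 to 0.63).

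PFT-alpha was also set directly against ACC. These values share libraries with both comparisons above and are no independent evidence of them. No member passed in the unpaired fit, where 0.194% of all genes were called and limma gave 8 members and 1220 genes at an unadjusted p below 0.05. The paired fit called 8 of 37 members (21.6%), against 2.61% of all genes. Of these 7 were lower with PFT-alpha than with ACC, where 0.915% of all genes were lower, and 1, ERF061, was higher, where 1.7% were.

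In log2 units ERF1 gave -1.63 (adjusted p = 0.00755), ERF11 -1.77 (0.0101) and ERF055 -1.33 (0.0173) in the paired limma fit. ERF2 gave -1.21 (0.01), Rap2.6L -0.87 (0.015), RAP2.2 -0.79 (0.0204) and ERF-1 -0.62 (0.021) in the same limma fit. ERF061 gave 0.78 (0.0433). Of the 11 members called under ACC, EBP (-0.82, interval -1.26 to -0.39), ERF8 (-0.25, -0.53 to 0.04) and CRF2 (-0.21, -0.49 to 0.07) did not pass. For ERF8 and CRF2 the intervals included 0. Without the 3 replicate 3 libraries 5 members were called (ERF1, ERF11, Rap2.6L, ERF055 and ERF061), against 3.17% of all genes, and none without WT PFT-alpha 1, WT PFT-alpha 2 or WT ACC 2 in the paired fit.

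**Figure D4:**
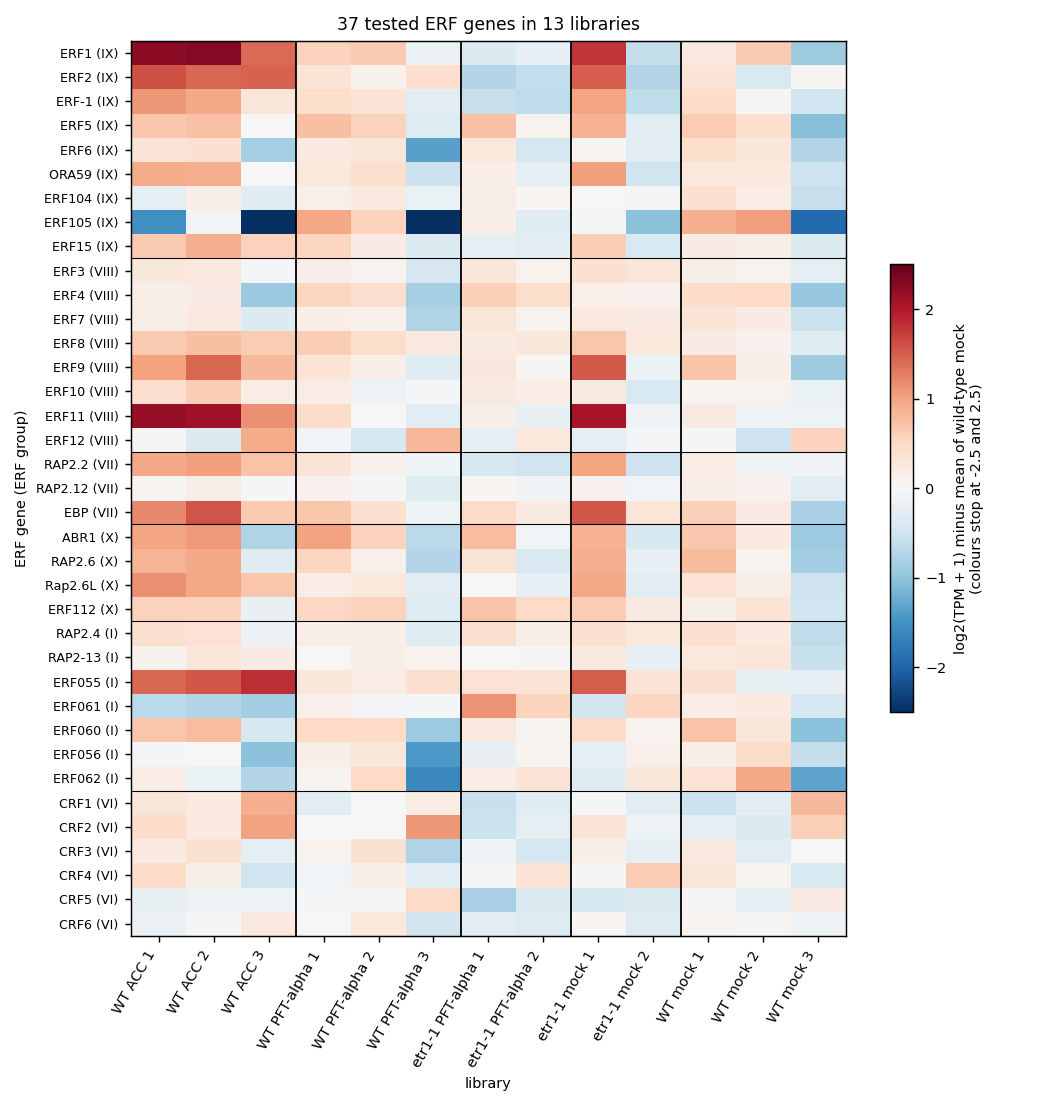
Difference of log2(TPM + 1) from the mean of the 3 WT mock libraries for the 37 tested ERF genes (rows, by ERF group) in the 13 libraries (columns, replicate numbers as labelled). WT ACC 1 and 2 and the library labelled etr1-1 mock 1 share a pattern, and the replicate 3 libraries of wild type are lower for most genes.

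In etr1-1, ethylene perception is blocked by the altered receptor. The mutation is a change within the protein, so the ETR1 transcript is no check of the genotype. The 11 members called under ACC were picked for their change under ACC in wild type, and the counts that follow were not made over all genes. The library labelled etr1-1 mock 1 lay within the WT ACC range for 10 of the 11 members called under ACC and outside the range of the other 3 etr1-1 libraries for all 11. ERF2, for example, had 16.4 TPM there, against 2.72 to 3.06 TPM in the other etr1-1 libraries, and ERF11 7.47 TPM, against 0.78 to 1.25 TPM. Seed storage and oil body genes summed to 330.0 TPM in it, against 4166 to 4678 TPM in the other etr1-1 libraries.

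For etr1-1 against wild type in mock, no member was called over all 13 libraries, unpaired or with the block, while 0.0284% and 0.0806% of all genes were. At an unadjusted p below 0.05 limma gave 2 members and 460 genes unpaired, and 8 members and 2076 genes with the block. The median log2 change of the members was 0.24 unpaired and -0.04 with the block. Leaving out the library labelled etr1-1 mock 1 gave no member unpaired (0.0664% of all genes) and, with the block, 1 of 37 members, ERF-1, against 0.669% of all genes. ERF-1 was then lower in etr1-1, at -0.78 on the log2 scale (SE 0.133, adjusted p = 0.0465 in limma), where the spread for the single etr1-1 mock library left is borrowed from the remaining groups.

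Under PFT-alpha, where the mutant libraries do not include the one that goes against its label, no member was called unpaired or with the block (0.0284% and 0.0616% of all genes). At an unadjusted p below 0.05 limma gave 2 members and 1438 genes unpaired, and 5 members and 2788 genes with the block. That library still entered these fits through the spread. Without it, with the block, 4 of 37 members (10.8%) were lower in etr1-1, against 2.71% of all genes called in either direction, 0.939% lower and 1.77% higher. These were ERF-1 (-1.01, adjusted p = 0.00203), ERF1 (-0.96, 0.0408), ERF2 (-0.94, 0.0352) and RAP2.2 (-0.65, 0.0303) in limma. Without that library and without the block none was called, against 0.474% of all genes, and the 4 gave log2 fold changes of -0.77, -0.63, -0.96 and -0.57 in that order, with adjusted p = 0.634, 0.833, 0.113 and 0.413 in limma. Without that library the 4 calls thus rest on the block, which is an assumption for etr1-1. With library weights over all libraries and no block, 3 of these 4 members were called lower. They were ERF-1 (-0.95, adjusted p = 0.00914), RAP2.2 (-0.60, 0.0344) and ERF1 (-0.90, 0.0468) in limma, while ERF2 was not called. That setting called 8 of 37 members, against 3293 of all 21091 genes. It uses the same libraries, so it is no independent evidence of the 4 calls.

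For these 4 members the etr1-1 PFT-alpha libraries lay below the WT PFT-alpha libraries without overlap. The margin was wide for RAP2.2, with 288 and 269.7 TPM in etr1-1 PFT-alpha, against 479, 414 and 354 TPM in WT PFT-alpha. It was narrow for ERF1, with 0.91 and 1.09 TPM, against 2.6, 2.78 and 1.17 TPM. All 4 were among the members higher under ACC in wild type. CRF1, CRF2 and CRF5 also lay below without overlap and were not called in that fit. ERF061 and ERF10 lay above without overlap, ERF10 by a narrow margin (1.65 and 1.58 TPM, against 1.56, 1.08 and 1.2 TPM). The share of all genes that lay below or above in this way was not counted, so these separations are no result about the members. ERF061, the member lower under ACC, had 19.2 and 12.9 TPM in etr1-1 PFT-alpha, against 9.18, 8.17 and 8.09 TPM in WT PFT-alpha, and did not pass (0.73, adjusted p = 0.0819 in limma). In group VI, CRF5 had 4.58 and 6.7 TPM in etr1-1 PFT-alpha, against 8.52, 9.02 and 12.7 TPM in WT PFT-alpha, and did not pass either (-0.65, adjusted p = 0.107). Seed storage and oil body genes summed to 4594 to 4678 TPM in etr1-1 PFT-alpha, against 257 to 1730 TPM in WT PFT-alpha, with 5 of the 8 called higher in the same fit. Of the other lists, 4 of 12 genes of perception and signalling and 3 of 10 low-oxygen genes were lower, as was 1 of 5 cytokinin response genes, ARR7 (-0.81). Of the 3 tested defence genes listed as downstream of ERF1 and ORA59, 1 was higher, the defensin gene PDF1.1 (3.13 on the log2 scale). It had 721 and 2111 TPM in etr1-1 PFT-alpha, against 135, 133 and 523 TPM in WT PFT-alpha. PDF1.1 also had 951 TPM in etr1-1 mock 2, 819 TPM in WT ACC 3 and 657 TPM in WT mock 3. In these libraries the seed storage and oil body genes summed to 4166, 2887 and 2125 TPM. Whether ERF1 or ORA59 has a part in the PDF1.1 values was not tested. The part of the seed genes in the ERF values was not tested.

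PFT-alpha against mock within etr1-1 called no member in either fit over all libraries (0.0142% and 0.0237% of all genes). At an unadjusted p below 0.05 limma gave 1 member and 418 genes unpaired, and 5 members and 1627 genes with the block. With the block and without the library labelled etr1-1 mock 1, the median log2 change of the members was 0.00 and 19 of 37 lay above 0. That fit leaves 1 etr1-1 mock library, and the block is an assumption for etr1-1. ERF1 then gave 0.41 (95% interval -0.18 to 1.01), ERF2 -0.06 (-0.62 to 0.49), RAP2.2 0.00 (-0.37 to 0.37) and ERF11 -0.08 (-0.78 to 0.62). The test of whether PFT-alpha acts differently in the 2 genotypes, the interaction, called no member in either fit or without that library (0.00474%, 0.00948% and 0.0142% of all genes). At an unadjusted p below 0.05 limma gave 1, 7 and 1 members and 333, 1468 and 564 genes in these 3 fits. These values depend on 2 libraries a group, or 1, and a p that misses the threshold does not show that the genotypes responded alike.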

How the data were processed

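The deposited table gave TPM per gene and library, named so per the file headers. The tools listed, per the submitters' processing notes, are StringTie, RSEM, DESeq2, HISAT2, HISAT and fastp, with TAIR10 as the build and neither versions nor roles. Libraries came from a stranded poly(A) kit per the labels' protocols, and whether counting used strand is not given in the sources used here. Groups and replicate numbers came from the labels, and the series' design text calls the replicates biological. It describes more etr1-1 replicates than the 2 a group analysed here.

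Values were tested as log2(TPM + 1) with limma 3.58.1 (R 4.3.3, intensity trend, two-sided, Benjamini-Hochberg over 21091 genes that reached 1 TPM in 2 or more libraries, threshold 0.05). Wild-type comparisons used the 9 wild-type libraries, comparisons with etr1-1 all 13. The paired fit adds the replicate number as a block. Same-numbered wild-type libraries deviated together in all 9 pairs (0.28 to 0.77), but only the replicate 3 pairs (0.70 to 0.77) bear on the pairing. Pairs of the same number across genotypes ran from -0.22 to 0.24 and within etr1-1 reached 0.13. The numbers were thus taken to pair wild type only, where they chiefly set replicate 3 apart, and the block is an assumption for etr1-1. No label says what the numbers share. Depth was estimated from the steps that low TPM values form, and covers counting error only. The fit was tested on simulated data that held no replicate 3 shift and no outlying library, so that test does not bear on these features.

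The members and gene lists were chosen with earlier results of these data known. Named members are those called in either fit, the most abundant and the most changed of each ERF group, ERF1, ORA59 and group VII. CRF5, ERF9 and others outside this rule were named after their values were seen. Names of the members came from the gene names in the table or, where it gave none, from the Swiss-Prot annotation in the same table. Gene positions and promoters are those of TAIR10.1, in which all 44 members were found, while the table holds no coordinates. Of the members, 4 overlap a gene on the other strand: ERF105 (100% of its length), RRTF1 (47.7%), ABR1 (4.5%) and CRF4 (1.4%). Python 3.11.15, numpy 2.4.6, pandas 2.3.3 and matplotlib 3.10.9 were used for tables and figures.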

Additional observations from a re-analysis of the deposited data

How the results depend on the processing

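Counts are of the 37 tested ERF members with an adjusted p below 0.05 in limma. For ACC over mock in wild type the unpaired count of 3 became 11 with the replicate block, 0 when all 13 libraries shared one spread, and 8 without the 3 wild-type replicate 3 libraries, a setting chosen after seeing the data. Leaving out 1 library gave 0 to 3 members unpaired (0 without WT mock 2, WT ACC 1 or WT ACC 2) and, in fits with the block also chosen after seeing the data, 4 to 11 (4 without WT mock 2 or WT ACC 2, 8 without WT mock 3 or WT ACC 3, 9 without WT mock 1 and 11 without WT ACC 1). Of all genes those unpaired fits called 35 to 128 and those blocked fits 218 to 1099. The blocked leave-one-out fits of PFT-alpha over ACC called 52 to 530 of all genes. For PFT-alpha over ACC the count of 0 became 8 with the block and 5 without the replicate 3 libraries, and leaving out 1 library with the block gave 0 to 8 (0 without WT PFT-alpha 1, WT PFT-alpha 2 or WT ACC 2, 3 without WT PFT-alpha 3, 7 without WT ACC 3 and 8 without WT ACC 1). PFT-alpha over mock in wild type gave 0 under every setting run. For etr1-1 over wild type in mock the count was 0 except for 1 with the block and without the library labelled etr1-1 mock 1. Under PFT-alpha it was 0, also unpaired without that library (added after seeing the data, 100 of all genes), except for 4 in the blocked fit without it and 8 with library weights, where 3293 of all 21091 genes were called (ERF1, ERF-1, ERF15, RAP2.2, CRF3, CRF5 and CRF6 lower, ERF061 higher). PFT-alpha over mock in etr1-1 ranged from 0 to 2 when 1 library was left out (ERF2 and RAP2.2 without etr1-1 mock 2, against 2 to 200 of all genes with 200 there), and the interaction from 0 to 1 (ERF2 without etr1-1 mock 2, against 1 to 135 of all genes with 135 there). Those called values rest on the library labelled etr1-1 mock 1 as the only etr1-1 mock library. The cause of these changes was not tested. Of all genes, the unpaired and blocked counts were 189 and 1159 for ACC over mock, 41 and 551 for PFT-alpha over ACC, 6 and 17 for etr1-1 over wild type in mock, 6 and 13 under PFT-alpha, and 571 under PFT-alpha with the block and without the library labelled etr1-1 mock 1. Over the 19 single-gene results of called members and all their settings, 342 of 342 values kept the sign of the unpaired fit, and 256 kept their side of the threshold. These genes were picked by calls in the same libraries, and some settings, such as the block, leave the log2 fold change over all wild-type libraries unchanged. The shared sign was thus nearly fixed in advance and is no independent evidence. The block changed no other call than those given in the text. Median of ratios scaling moved the median of all genes by less than 0.1. Members near 1 TPM, such as ORA59, ERF15 and ERF10, rest on few fragments, which limits their precision.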

Other observations

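Of the 4 EDF and RAV genes, AP2 relatives outside the 44 members, 3 rose under ACC in the paired fit. EDF3 had 68.7, 55.9 and 43.97 TPM in WT ACC, 26.99, 25.4 and 13.8 TPM in WT PFT-alpha, 17.4 and 15.3 TPM in etr1-1 PFT-alpha, 69.5 and 15.4 TPM in etr1-1 mock and 24.9, 17.9 and 15.03 TPM in WT mock. TEM1 had 298, 299.5 and 189 TPM in WT ACC and 182, 139 and 73.6 TPM in WT mock. In both genes WT ACC lay above WT mock without overlap, and the library labelled etr1-1 mock 1 lay next to WT ACC. RAV1, the 1 that did not rise, had 220.3, 198 and 128 TPM in WT ACC and 262, 252 and 144 TPM in WT mock, and did not pass (log2 fold change -0.25, adjusted p = 0.222 in the paired limma fit).

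HRE1, a group VII factor induced by low oxygen, had 67.05, 101 and 36.3 TPM in WT ACC, 62.6, 41.7 and 19.2 TPM in WT PFT-alpha, 20.1 and 25.6 TPM in etr1-1 PFT-alpha, 72.95 and 22.7 TPM in etr1-1 mock and 62.4, 34.8 and 25.4 TPM in WT mock. The wild-type groups overlapped, and all 3 replicate 3 libraries were the lowest of their group. HRE2 stayed between 0.29 and 2.82 TPM over the 13 libraries.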
